A study of Mus musculus with 12 samples.

Results

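The 2 single genetic lesions of a mouse study of chronic myelomonocytic leukaemia, a transgene for the histone demethylase KDM6B and the loss of the DNA demethylase Tet2, were set against each other directly. The comparison took the 3 libraries of each lesion, 6 of the 12 libraries of the series, and left out the control and the animals with both lesions. The animals called KDM6B OE carried human KDM6B under the Vav promoter, and the label names no Cre. The animals called Tet2 KO carried Vav Cre with both Tet2 alleles floxed, so the groups differ in the Cre allele as well as in the lesions, and these cannot be told apart here. Vav sequences drive expression across blood cells, so in both groups the lesion was placed in the whole blood system rather than in 1 lineage. Both groups were untreated C57BL/6 mice, their ages are not in the labels, and the material was bone marrow sorted as LSK cells (lineage-negative, Sca-1-positive, Kit-positive), a gate that keeps blood stem cells and early multipotent progenitors. Whether the libraries of each group stem from separate animals is not in the labels, so a p-value here measures only the spread among these samples, some of which may be technical.

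KDM6B removes repressive methyl groups from a lysine of histone H3, the mark that Polycomb complexes write on silent genes. TET2 oxidises methylated cytosine in DNA, a step towards its removal, and is among the genes most often mutated in clonal blood disorders. Both enzymes thus act against a silencing mark, one on histones and the other on DNA. Immediate early genes, which appear often below, are genes such as those for the FOS, JUN, EGR and KLF transcription factors that are transcribed within minutes of a stimulus and whose transcripts are short-lived. Among their products are phosphatases and RNA-decay factors that end the response.

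Levels are in CPM, read counts scaled to a common library total. The 6 libraries held 21935022 to 25922064 reads on listed genes, and 1 read equalled 0.0390 to 0.0463 CPM. A gene with no read may still have had up to 3 reads' worth, at most 0.139 CPM, counting error alone considered. Differences are log2 differences of CPM + 1, KDM6B OE minus Tet2 KO, with their standard error, and genes with an adjusted p under 0.05 are named as called (limma with Benjamini-Hochberg adjustment over the 12609 genes tested). The gate's own markers were present in each library, with Kit at 498 to 859 CPM and Ly6a, which encodes Sca-1, at 80.4 to 180.0 CPM. Tet2 KO 1 was the only library with Y-linked transcripts (Ddx3y at 79.7 CPM) and had Xist at 2.44 CPM against 335 to 402 CPM in the other 5 libraries. Tet2 KO 2 stood apart for B cell genes, whose summed level was 7852 CPM there and 536 to 900.2 CPM elsewhere, most of it Jchain, the joining chain of secreted antibodies.

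The targeted genes came first. Tet2 (chromosome 3, 133463679 to 133545139, minus strand, mm10) read 64.9, 87.6 and 84.5 CPM in KDM6B OE and 31.6, 24.9 and 24.1 CPM in Tet2 KO. The groups did not overlap, and the mean in Tet2 KO was 34.0% of that in KDM6B OE, 79.0 ± 12.3 CPM in KDM6B OE and 26.8 ± 4.10 CPM in Tet2 KO (SD, n = 3). The log2 difference was 1.52 ± 0.16 (adjusted p = 0.00221), and an exact two-sided permutation test of CPM gave p = 0.1, the smallest that 3 libraries against 3 allow. Reads on the exons outside a floxed segment can remain after recombination, and Gm42567 overlaps the gene, so the remainder is no measure of unrecombined cells. Mouse Kdm6b read 12.5, 7.79 and 10.4 CPM in KDM6B OE and 6.90, 5.46 and 5.77 CPM in Tet2 KO, without overlap, a ratio of means of 1.69. Its log2 difference was 0.66 ± 0.23 (adjusted p = 0.516), which missed the threshold, and the exact permutation p was again 0.1. Transgene reads are human sequence, and how many of them were counted on the mouse gene is not known, so this value is not a level of the transgene.

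Across all genes, 30 of 12609 were called (0.238%), 25 of them higher in KDM6B OE (0.198%) and 5 lower (0.0397%). All 30 called genes had groups that did not overlap, as had 1721 of the genes tested (13.6%, 947 or 7.51% higher and 774 or 6.14% lower). An unadjusted p under 0.05 was reached by 1009 genes (8.0%), with 618 higher (4.9%) and 391 lower (3.1%). On the same genes edgeR called 20 (0.159%), DESeq2 141 (1.12%), and limma with all 12 libraries in the fit 26 (0.206%). Of the 150 genes that differed by 2-fold or more, 89 were higher and 61 lower, and 23 of these were called. The spread within Tet2 KO was wider than within KDM6B OE, with a median standard deviation over genes of 0.205 against 0.145 on the log2 scale. The calls of 9 genes (Klf2, Klf6, Egr1, Junb, Ier2, Zfp36, Dusp2, Gem and Tet2) were kept in 13 of the 14 alternative analyses. The exception was the fit with no filter on low values, where no gene passed with limma (lowest adjusted p = 0.0585, with 1151 genes at an unadjusted p under 0.05). The other 21 calls ended in at least 1 further alternative, named for 20 of them with their gene group below.

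**Figure D1:**
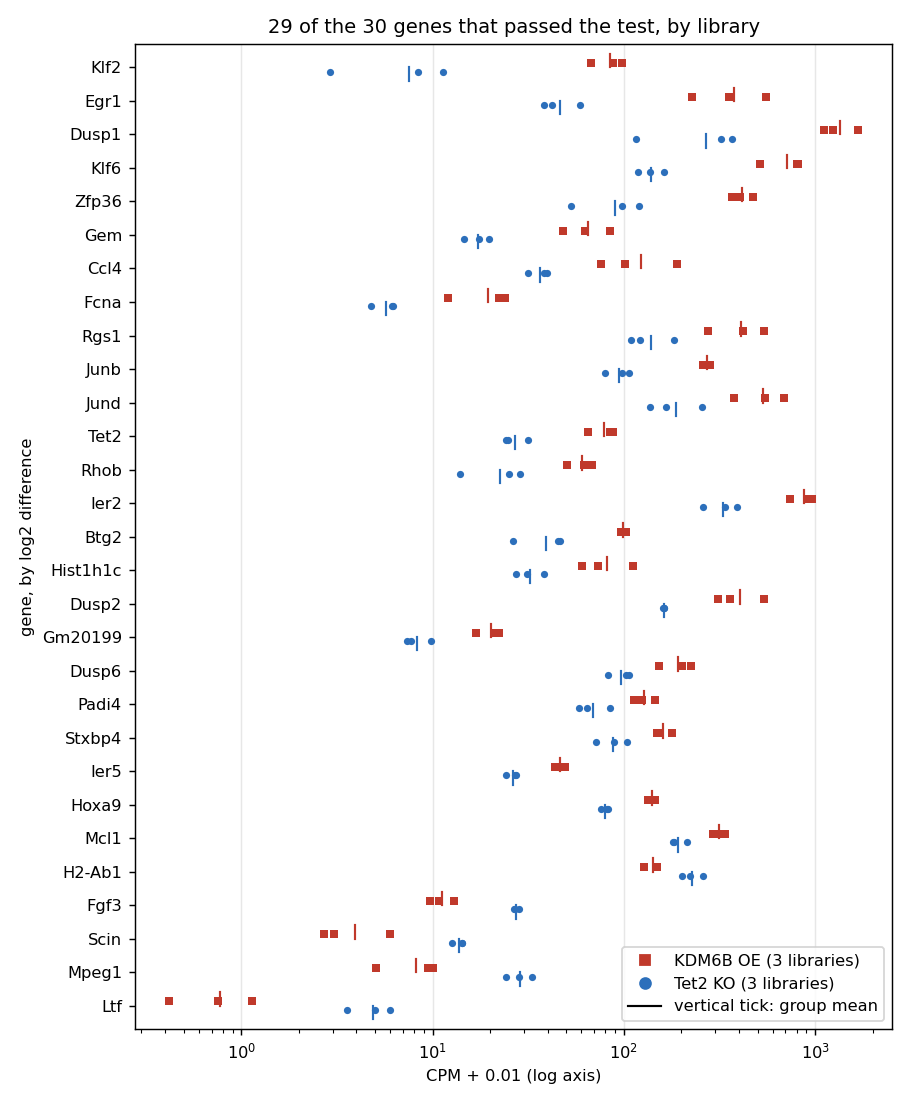
Level of 29 of the 30 called genes (rows, ordered by log2 difference) in the 6 libraries, as CPM + 0.01 on a log axis, with red squares for KDM6B OE, blue circles for Tet2 KO and a vertical tick at each group mean. The squares of the upper 24 genes lie to the right of all circles, and those of the lower 5 genes lie to the left.

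**Figure D2:**
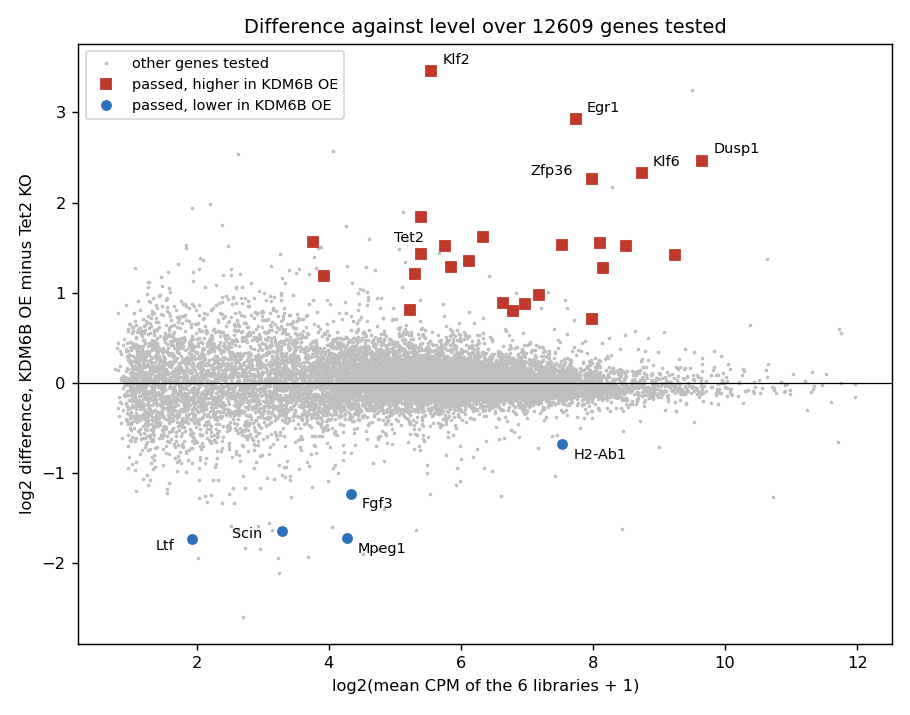
Log2 difference (KDM6B OE minus Tet2 KO) of each of the 12609 genes tested against log2(mean CPM of the 6 libraries + 1), with the higher called genes as red squares and the lower ones as blue circles. Most genes lie close to 0 (interquartile range −0.12 to 0.15), and Klf2 and Egr1 lie highest among the called genes.

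Of the 25 higher genes, 5 are on the list of immediate early factors other than AP-1 and 2 on that of AP-1 subunits. These lists held 13 and 9 tested genes, and 0.198% of all 12609 genes tested were called higher. Both lists were chosen with earlier results of these data known, so the counts are descriptions. Klf2, a Krüppel-like factor known for keeping lymphocytes and endothelium quiescent, read 67.3, 88.0 and 97.7 CPM in KDM6B OE and 2.92, 8.38 and 11.3 CPM in Tet2 KO. Its lowest KDM6B OE library was thus well above its highest Tet2 KO library, and the log2 difference was 3.46 ± 0.35 (adjusted p = 0.00221). Klf6, a related factor (chromosome 13, 5861482 to 5870394, plus strand), read 806, 810.0 and 517 CPM in KDM6B OE and 118, 163 and 137 CPM in Tet2 KO, a difference of 2.33 ± 0.17 (adjusted p = 0.000291). Egr1, a zinc-finger factor that restrains stem cell division and migration, read 355, 553 and 226 CPM in KDM6B OE and 38.3, 59.3 and 42.3 CPM in Tet2 KO, a difference of 2.92 ± 0.27 (adjusted p = 0.00114). Every KDM6B OE library exceeded every Tet2 KO library for each of these 3 genes, and KDM6B OE 3 was the lowest of its group for Klf6 and Egr1 but the highest for Klf2. Ier2, a small nuclear protein of the same response, read 927, 960.0 and 735 CPM in KDM6B OE and 259, 389 and 339 CPM in Tet2 KO (difference 1.42 ± 0.15, adjusted p = 0.00272). Ier5, another of its family, read 46.8, 43.5 and 49.2 CPM in KDM6B OE and 27.01, 27.3 and 24.2 CPM in Tet2 KO (difference 0.81 ± 0.13, adjusted p = 0.0444), with a spread of a few CPM within each group. The Ier5 call ended without KDM6B OE 1, 2 or 3 or Tet2 KO 1 or 3, at equal totals, in edgeR, with the replicate number as a block (adjusted p up to 0.231).

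Of the 13 tested genes on the list of immediate early factors other than AP-1, 5 were called higher and none lower, with a median log2 difference of 0.81 beside 0.00 over all genes. In 8 of the 13 the groups did not overlap, all higher in KDM6B OE (61.5%, against 7.51% of all genes tested). Nr4a1, an orphan nuclear receptor, read 52.8, 23.6 and 8.97 CPM in KDM6B OE and 2.92, 2.32 and 3.86 CPM in Tet2 KO and missed the threshold (2.57 ± 0.48, adjusted p = 0.0786) over a wide range within KDM6B OE. Klf4 showed the same kind of spread, at 3.48, 13.5 and 4.45 CPM in KDM6B OE and 0.257, 1.39 and 2.07 CPM in Tet2 KO (1.76 ± 0.46, adjusted p = 0.27), and Ier3 read 108, 74.4 and 77.3 CPM in KDM6B OE and 39.0, 66.3 and 46.2 CPM in Tet2 KO (0.78 ± 0.20, adjusted p = 0.247). Egr2 and Egr3 were below the filter.

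AP-1 is a dimer of a FOS and a JUN protein, or of JUN proteins alone, that binds DNA and passes signals from growth factors and stress to transcription. Junb (chromosome 8, 84974484 to 84978718, minus strand) read 260.3, 271 and 284 CPM in KDM6B OE and 79.5, 106 and 97.2 CPM in Tet2 KO, with values close together inside each group and a gap between them. Its log2 difference was 1.53 ± 0.12 (adjusted p = 0.000291). Jund read 544, 686 and 375 CPM in KDM6B OE and 136, 166 and 257 CPM in Tet2 KO, a difference of 1.52 ± 0.24 (adjusted p = 0.0345), and its call ended without KDM6B OE 1 or 2 or Tet2 KO 2, with all 12 libraries in the fit, in edgeR (adjusted p up to 0.288). Jun itself, at 1838, 2954 and 2045 CPM in KDM6B OE and 542, 933 and 1269 CPM in Tet2 KO, did not overlap between groups and missed the threshold (1.37 ± 0.27, adjusted p = 0.0847). Fos read 717, 1666 and 1431 CPM in KDM6B OE and 32.8, 199.6 and 293 CPM in Tet2 KO, a difference of 3.25 ± 0.63 (adjusted p = 0.0845), and Tet2 KO 1 was far below the other libraries of its group. Fosb showed the same low values in library 1 of both groups, at 8.37, 38.3 and 38.9 CPM in KDM6B OE and 1.84, 11.2 and 10.3 CPM in Tet2 KO (1.74 ± 0.61, adjusted p = 0.509), and the groups overlapped. Atf3, a stress-induced partner of JUN, read 17.4, 9.59 and 2.30 CPM in KDM6B OE and 0.6002, 0.0463 and 0.954 CPM in Tet2 KO (2.54 ± 0.53, adjusted p = 0.119), and it passed the filter through the KDM6B OE libraries alone. Of the 9 AP-1 genes tested, 2 were called, 8 had a positive difference, and the median difference was 1.52. In 5 the groups did not overlap, all higher in KDM6B OE (55.6%, against 7.51% of all genes tested). Atf3 counts in the 8 and the 5, although the filter fixed its direction, since KDM6B OE had to be the higher group. The counting is not known to use strand, so reads of Junb, Jund and Jun cannot be told apart from those of the overlapping Prdx2, Gm11175 and Junos.

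Of the genes whose products switch signalling off again, 3 phosphatases were called higher. Dusp1 encodes a nuclear phosphatase that inactivates the stress-activated MAP kinases p38 and JNK, and it read 1112, 1676 and 1245 CPM in KDM6B OE and 116, 321 and 366 CPM in Tet2 KO. Tet2 KO 1 was again the lowest library, no value overlapped, and the difference was 2.47 ± 0.34 (adjusted p = 0.0185). Dusp2, a related nuclear phosphatase of immune cells, read 539.9, 357 and 312 CPM in KDM6B OE and 159.7, 163 and 162 CPM in Tet2 KO, with the Tet2 KO libraries nearly equal and a difference of 1.28 ± 0.17 (adjusted p = 0.0118). Dusp6, the cytoplasmic phosphatase for ERK, read 225, 201 and 153 CPM in KDM6B OE and 107, 82.2 and 103 CPM in Tet2 KO, a difference of 0.97 ± 0.15 (adjusted p = 0.0339). All 11 tested genes of the list of MAP kinase phosphatases and feedback inhibitors had a positive difference (6429 of all genes tested did, 51.0%), and 3 were called. In 7 the groups did not overlap, all higher (63.6%, against 7.51% of all genes tested), and the median was 0.97. Spry1, an inhibitor of receptor tyrosine kinase signalling, read 44.3, 37.7 and 25.1 CPM in KDM6B OE and 16.2, 10.4 and 16.2 CPM in Tet2 KO and missed the threshold (1.26 ± 0.24, adjusted p = 0.0818), as did Dusp10 (0.97 ± 0.23, adjusted p = 0.193). The Dusp1 call ended without KDM6B OE 1 or 2 (adjusted p up to 0.0946). The Dusp6 call ended without KDM6B OE 1 or 2 or Tet2 KO 3, with all 12 libraries in the fit, at equal totals (adjusted p up to 0.18). Ergic1 overlaps Dusp1.

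Among RNA-decay and growth-restraining factors, 2 genes were called higher. Zfp36, which encodes tristetraprolin, a protein that binds AU-rich elements and speeds the decay of cytokine and immediate early transcripts, read 404, 471 and 369.8 CPM in KDM6B OE and 53.2, 97.3 and 119.6 CPM in Tet2 KO. The lowest KDM6B OE value was far above the highest Tet2 KO value, and the difference was 2.26 ± 0.23 (adjusted p = 0.00221). Btg2, an antiproliferative factor that recruits the deadenylase complex, read 97.4, 103 and 96.1 CPM in KDM6B OE and 26.2, 46.2 and 45.1 CPM in Tet2 KO, a difference of 1.36 ± 0.19 (adjusted p = 0.0185). Its relative Btg1 did not overlap between groups and missed the threshold, at 179, 155 and 119.8 CPM in KDM6B OE and 55.8, 93.6 and 79.1 CPM in Tet2 KO (0.99 ± 0.19, adjusted p = 0.0845). All 10 tested genes of this list had a positive difference, 2 were called, and the median was 0.49. In 6 the groups did not overlap, all higher (60%, against 7.51% of all genes tested). The Btg2 call ended without KDM6B OE 1, 2 or 3 (adjusted p up to 0.118). Gm44710 overlaps Zfp36.

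Since these genes moved in 1 direction, their promoters were read for 3 motifs of stimulus-responsive genes, in the 250 bases before the start site (RefSeq, build GRCm38.p6, the NCBI name of mm10 with later patches). The motifs were the cyclic AMP response element TGACGTCA (its own reverse complement), the AP-1 site TGACTCA on both strands, and the CArG box, the element bound by serum response factor. A window was in the table for 18 of the 25 higher genes and for 4 of the 5 lower genes. A called gene was counted when any of its windows matched, whereas the percentages are of single windows over all genes, so the measures are unlike. TGACGTCA was present in 2 of the 18, Dusp1 and Btg2, and in 1.55% of all 32851 windows. TGACTCA was present in 1 of the 18, Padi4, and in 4.46% of all windows. A CArG box was present in 1 of the 18, Zfp36, in the lower gene Mpeg1, and in 1.47% of all windows. The windows of Dusp1, Btg2 and Zfp36 are shown because these genes are described above, and their matches are in capitals, 5′ to 3′ on the gene's strand. They lie at chr17:26508473-26508722, chr1:134079156-134079405 and chr7:28379229-28379478, all on the minus strand.
Dusp1: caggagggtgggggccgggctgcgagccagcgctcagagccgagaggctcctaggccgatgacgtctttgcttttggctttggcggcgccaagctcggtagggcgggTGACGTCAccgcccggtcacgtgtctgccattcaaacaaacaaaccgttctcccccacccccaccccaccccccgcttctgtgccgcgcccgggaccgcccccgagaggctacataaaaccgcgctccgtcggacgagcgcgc
Btg2: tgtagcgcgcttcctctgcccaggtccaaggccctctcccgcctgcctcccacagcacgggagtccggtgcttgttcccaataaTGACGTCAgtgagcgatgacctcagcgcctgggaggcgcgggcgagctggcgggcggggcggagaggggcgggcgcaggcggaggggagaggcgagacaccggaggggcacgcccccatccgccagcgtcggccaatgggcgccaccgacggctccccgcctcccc
Zfp36: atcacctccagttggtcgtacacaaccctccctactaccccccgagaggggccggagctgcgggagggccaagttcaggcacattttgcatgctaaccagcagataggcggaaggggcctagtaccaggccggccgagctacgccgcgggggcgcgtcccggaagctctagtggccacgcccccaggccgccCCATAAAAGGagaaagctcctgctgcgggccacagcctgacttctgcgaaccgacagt
The matches start 143, 166 and 58 bases before the start site. A match is a description of the sequence, and no binding was measured.

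Further called genes encode small GTPases, a regulator of chemokine receptor signalling, a chemokine and a survival factor. Gem, a small GTPase that inhibits calcium channels, read 84.7, 48.3 and 63.0 CPM in KDM6B OE and 19.8, 14.5 and 17.4 CPM in Tet2 KO, a difference of 1.84 ± 0.20 (adjusted p = 0.00307). Rgs1, which shortens signalling from chemokine receptors, read 538, 421 and 277 CPM in KDM6B OE and 109.5, 184 and 122 CPM in Tet2 KO, a difference of 1.55 ± 0.23 (adjusted p = 0.0268). Ccl4, a chemokine that attracts immune cells, read 189.6, 101 and 76.0 CPM in KDM6B OE and 31.5, 38.2 and 39.7 CPM in Tet2 KO, a difference of 1.62 ± 0.26 (adjusted p = 0.0406), with KDM6B OE 1 the highest library. Its neighbour Ccl3 read 107, 77.7 and 39.3 CPM in KDM6B OE and 23.4, 23.02 and 28.0 CPM in Tet2 KO and missed the threshold (1.45 ± 0.28, adjusted p = 0.0883). Of 12 chemokine and cytokine genes tested, Ccl4 alone was called with limma (6 at an unadjusted p under 0.05, 1 called by edgeR and 3 by DESeq2). In this list 6 were positive and 6 negative, and the median was 0.01 (with 1 library left out, at lowest −0.04 without Tet2 KO 2 and at highest 0.30 without Tet2 KO 3). Without overlap, 4 were higher and 2 lower (33.3% and 16.7%, against 7.51% and 6.14% of all genes tested). None of 16 tested genes for NF-kB subunits and their feedback regulators was called with limma (2 at an unadjusted p under 0.05, 0 called by edgeR and 1 by DESeq2), and their median was 0.06 (at lowest 0.04 without KDM6B OE 3 and at highest 0.10 without KDM6B OE 2). Within that list Nfkbiz, an atypical inhibitor that acts in the nucleus, read 81.9, 50.5 and 30.7 CPM in KDM6B OE and 14.4, 17.6 and 16.5 CPM in Tet2 KO (1.58 ± 0.28, adjusted p = 0.0604).

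Mcl1, the BCL2 family member that stem cells need to survive, read 336, 314 and 292 CPM in KDM6B OE and 180.2, 183 and 214 CPM in Tet2 KO, a difference of 0.71 ± 0.10 (adjusted p = 0.0237). It was the only one of 14 tested members of that family to be called, and the family's median was −0.02 (at lowest −0.02 without KDM6B OE 2 and at highest 0.03 without KDM6B OE 1). Rhob, an endosomal small GTPase, read 50.5, 61.8 and 67.9 CPM in KDM6B OE and 13.9, 28.7 and 24.97 CPM in Tet2 KO, a difference of 1.43 ± 0.23 (adjusted p = 0.0417), and was named after its value was seen. Each of these 4 calls ended in some alternatives. That of Rgs1 ended without KDM6B OE 1 or 2 or Tet2 KO 3 (adjusted p up to 0.137), that of Ccl4 without KDM6B OE 2 or Tet2 KO 1 or 3, at equal totals (adjusted p up to 0.114), that of Mcl1 without KDM6B OE 1 or 2 (adjusted p up to 0.137) and that of Rhob without KDM6B OE 1, 2 or 3 or Tet2 KO 3, in edgeR (adjusted p up to 0.181).

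Of 21 tested genes on the list of cholesterol synthesis, 20 had a positive difference. In 10 the groups did not overlap, all higher in KDM6B OE (47.6%, against 7.51% of all genes tested). The median was 0.32, and 0.21 without Tet2 KO 2. Sqle, which makes the epoxide precursor of sterols, read 85.8, 102 and 94.6 CPM in KDM6B OE and 84.8, 47.3 and 64.8 CPM in Tet2 KO (0.55 ± 0.18, adjusted p = 0.444), and Tet2 KO 2 was the lowest library, as it was for Idi1, Cyp51 and Insig1. All 18 tested heat-shock chaperones had a positive difference, but with limma none was called (5 at an unadjusted p under 0.05, 0 called by edgeR and 3 by DESeq2). Their median was 0.39, and 0.19 without KDM6B OE 2, the library with the highest value of Hspa8, Hspa5 and Dnajb1. Dnajb1, a co-chaperone of HSP70, read 219, 343 and 193 CPM in KDM6B OE and 120.3, 136 and 128 CPM in Tet2 KO (0.92 ± 0.18, adjusted p = 0.0845). In the integrated stress response, none of 24 tested genes was called with limma (7 at an unadjusted p under 0.05, 0 called by edgeR and 2 by DESeq2). Without overlap, 6 were higher and 3 lower (25% and 12.5%, against 7.51% and 6.14% of all genes tested). The median was 0.03 (at lowest −0.08 without KDM6B OE 3 and at highest 0.14 without KDM6B OE 1), while Atf4, its central transcription factor, read 296, 242 and 206 CPM in KDM6B OE and 111, 164 and 141 CPM in Tet2 KO (0.83 ± 0.16, adjusted p = 0.0845).

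**Figure D3:**
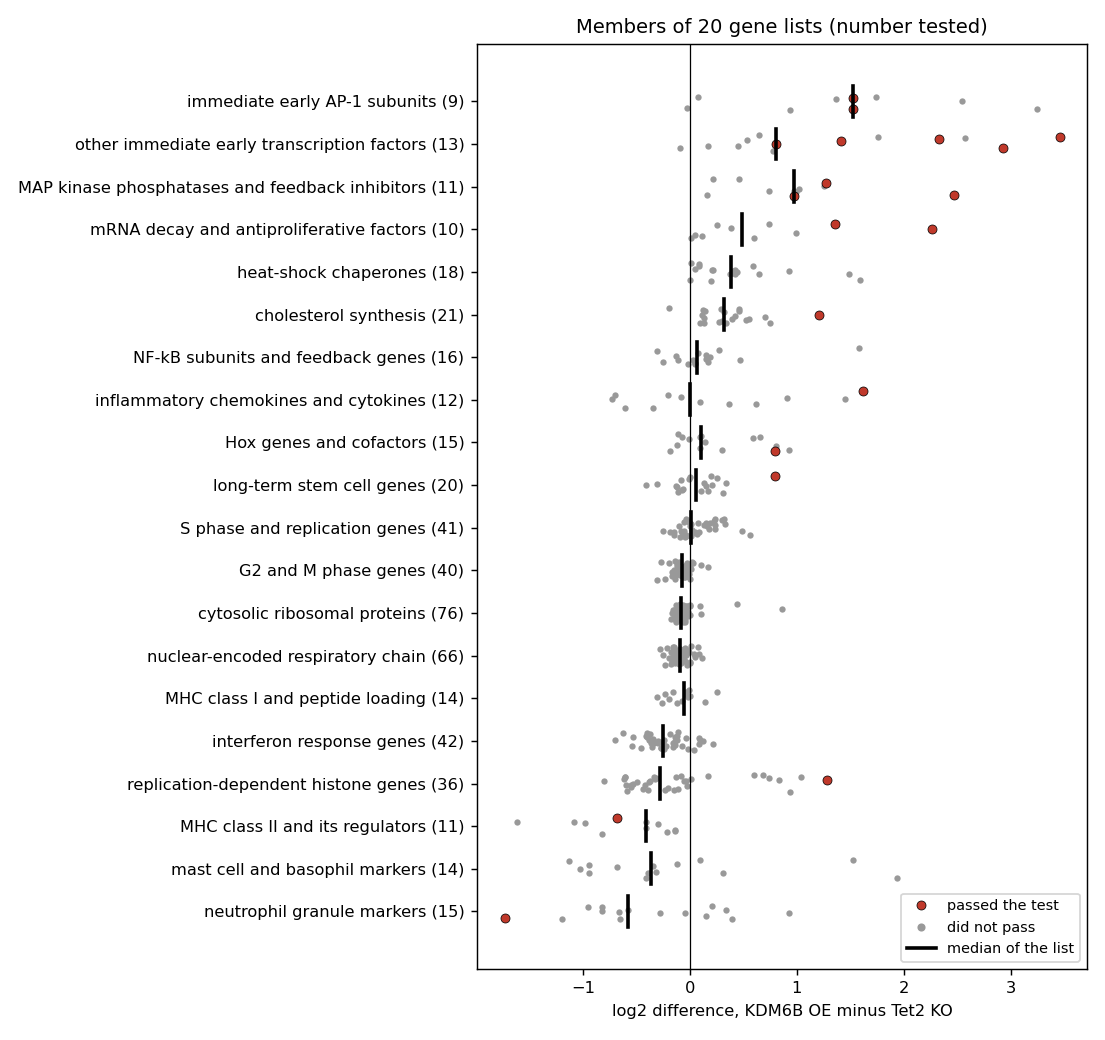
Log2 difference (KDM6B OE minus Tet2 KO) of each tested gene of 20 lists, 1 point per gene, in red where it was called and grey where it was not, with a black bar at the list's median and the number tested in brackets. The AP-1, feedback phosphatase and other immediate early lists have the medians farthest to the right of those drawn, at 1.52, 0.97 and 0.81, and the neutrophil list has the median farthest to the left.

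Hoxa9, the homeobox gene that maintains stem cell self-renewal and is high in many myeloid leukaemias, was higher in KDM6B OE. It read 142, 133 and 145 CPM in KDM6B OE and 81.4, 76.1 and 82.7 CPM in Tet2 KO, so that values lay close together within each group and far apart between them. The difference was 0.80 ± 0.10 (adjusted p = 0.00748) and its call ended without KDM6B OE 1 (adjusted p up to 0.0682). Its neighbour Hoxa5 read 10.9, 12.7 and 11.5 CPM in KDM6B OE and 6.09, 5.51 and 5.49 CPM in Tet2 KO (0.92 ± 0.20, adjusted p = 0.145). Hoxa10 read 40.6, 36.1 and 40.2 CPM in KDM6B OE and 30.3, 30.3 and 17.9 CPM in Tet2 KO (0.59 ± 0.20, adjusted p = 0.459). Neither overlapped between groups and neither passed. Of 15 Hox genes and cofactors tested, 1 was called, 10 were positive, and 4 did not overlap in the higher direction (26.7%, against 7.51% of all genes tested). The median was 0.11 (at lowest 0.05 without Tet2 KO 3 and at highest 0.27 without Tet2 KO 1). The 20 long-term stem cell genes, among them Hoxa9 as the only call, had a median of 0.05 (at lowest −0.07 without Tet2 KO 2 and at highest 0.25 without Tet2 KO 1), with 11 positive and 9 negative. Mir196b overlaps Hoxa9.

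Among the enzymes related to the lesions, Tet2 was the only called gene of 13 for DNA methylation and demethylation (median 0.13, at lowest −0.05 without Tet2 KO 2 and at highest 0.21 without Tet2 KO 3). Tet1 read 101, 85.4 and 90.3 CPM in KDM6B OE and 94.5, 63.7 and 95.4 CPM in Tet2 KO (0.14 ± 0.16, adjusted p = 0.837). Tet3 read 48.7, 35.5 and 45.5 CPM in KDM6B OE and 38.5, 42.9 and 52.6 CPM in Tet2 KO (−0.05 ± 0.16, adjusted p = 0.953). Both had overlapping groups. Dnmt3a, the de novo DNA methyltransferase often mutated in the same disorders, also overlapped, with a difference of 0.15 ± 0.13 (adjusted p = 0.81). None of 18 tested genes for histone H3K27 methylation enzymes and Polycomb subunits was called with limma (1 at an unadjusted p under 0.05, 0 called by edgeR and 0 by DESeq2), and the median was 0.09 (at lowest 0.01 without Tet2 KO 2 and at highest 0.13 without KDM6B OE 1). Ezh2, the methyltransferase that KDM6B opposes, read 139.9, 140.0 and 140.4 CPM in KDM6B OE and 157, 145 and 163 CPM in Tet2 KO. Its groups did not overlap, at a difference of −0.14 ± 0.09 (adjusted p = 0.743), and Kdm6a, the related demethylase, read 95.6, 102 and 81.3 CPM in KDM6B OE and 58.1, 96.6 and 98.1 CPM in Tet2 KO (0.17 ± 0.19, adjusted p = 0.837).

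Genes lower in KDM6B OE, that is higher in Tet2 KO, included antigen presentation. H2-Ab1 encodes the beta chain of the MHC class II molecule I-A, which shows peptides to helper T cells, and it read 149, 147 and 128 CPM in KDM6B OE and 222, 260.1 and 201 CPM in Tet2 KO. The groups did not overlap and the difference was −0.68 ± 0.12 (adjusted p = 0.0458), the smallest of the 5 lower calls. Its partner chain H2-Aa read 69.8, 63.8 and 43.0 CPM in KDM6B OE and 135, 117 and 94.9 CPM in Tet2 KO (−0.98 ± 0.18, adjusted p = 0.0797), and H2-Eb1, of the second class II molecule, 42.6, 49.2 and 28.1 CPM in KDM6B OE and 85.0, 99.9 and 68.7 CPM in Tet2 KO (−1.08 ± 0.20, adjusted p = 0.0786). Cd74, the invariant chain that guides class II molecules to the endosome, read 159.7, 151 and 123 CPM in KDM6B OE and 317, 1074 and 255 CPM in Tet2 KO (−1.62 ± 0.40, adjusted p = 0.229). Tet2 KO 2 was far above the rest for Cd74, and the other Tet2 KO libraries still exceeded every KDM6B OE library. All 11 tested genes of the MHC class II list had a negative difference and 6 did not overlap, all lower (54.5%, against 6.14% of all genes tested). Their median was −0.41, and −0.27 without Tet2 KO 2. Ciita, the master activator of class II transcription, overlapped, at 4.58, 4.96 and 2.30 CPM in KDM6B OE and 8.19, 3.01 and 5.92 CPM in Tet2 KO. The H2-Ab1 call ended without KDM6B OE 1, 2 or 3 or Tet2 KO 1 or 3, with all 12 libraries in the fit, with a pseudocount of 0.25, at equal totals, in edgeR (adjusted p up to 0.66).

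B cells and dendritic cells are rich in class II, so their markers are given beside it. The 17 B cell markers in the table summed to 662 to 760.3 CPM in KDM6B OE and 536 to 7852 CPM in Tet2 KO, the upper value being Tet2 KO 2. Pax5, which defines the B lineage, was at 3 reads or fewer in each library. Cd79a, a chain of the B cell receptor, read 3.52, 7.17 and 3.36 CPM in KDM6B OE and 7.29, 49.8 and 3.26 CPM in Tet2 KO. The 19 dendritic cell markers summed to 888 to 972 CPM in KDM6B OE and 895 to 1005 CPM in Tet2 KO. Much of this sum was Flt3, also a gate marker, at means of 458 CPM in KDM6B OE and 359 CPM in Tet2 KO. None of 15 tested was called with limma (5 at an unadjusted p under 0.05, 0 called by edgeR and 0 by DESeq2). Of these, 10 were negative, such as Irf8 (means of 109 and 177 CPM, with overlap), and 5 positive, with a median of −0.13. Without overlap, 2 were lower and 1 higher (13.3% and 6.67%, against 6.14% and 7.51% of all genes tested). The part of these cells in the class II values was not tested. In such bulk samples, fewer cells of a type and less RNA per cell cannot be told apart.

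**Figure D4:**
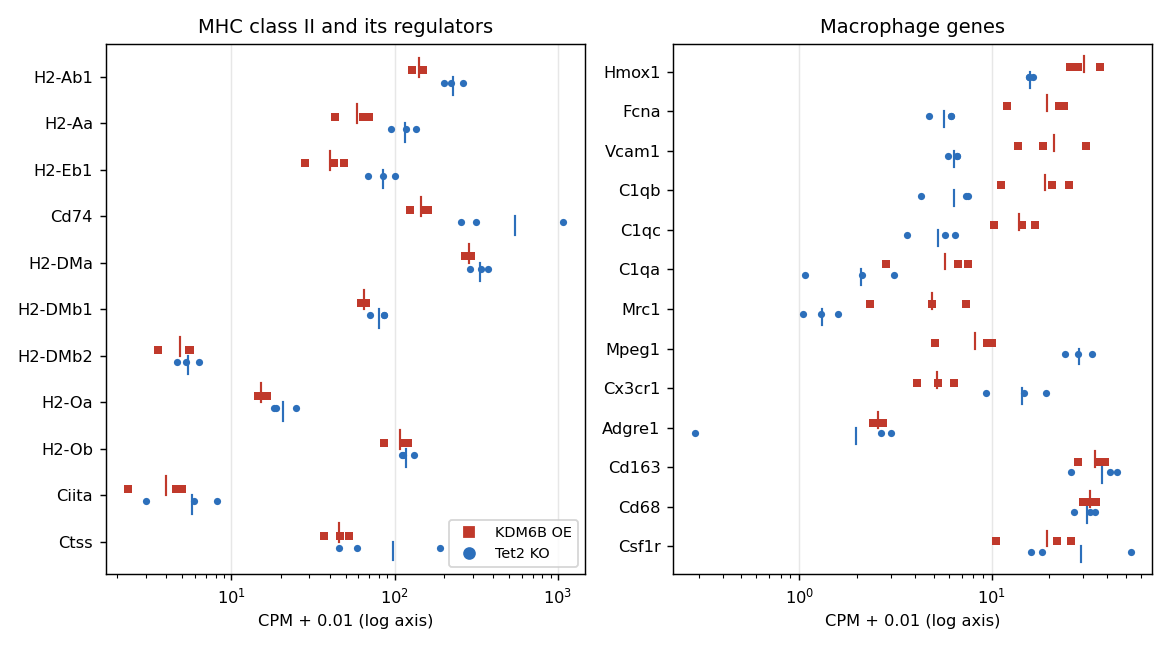
Level of the MHC class II genes (left) and of macrophage genes (right) in the 6 libraries, as CPM + 0.01 on a log axis, with red squares for KDM6B OE, blue circles for Tet2 KO and a vertical tick at each group mean. H2-Ab1, H2-Aa, H2-Eb1 and Cd74 are lower in every KDM6B OE library than in any Tet2 KO library, Fcna, C1qb and C1qc are higher, and Mpeg1 and Cx3cr1 are lower.

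Interferon response genes leaned the same way without a call. Of 42 tested, 36 had a negative difference, and with limma none passed (9 at an unadjusted p under 0.05, 0 called by edgeR and 0 by DESeq2). In 7 the groups did not overlap, all lower in KDM6B OE (16.7%, against 6.14% of all genes tested). The median was −0.25. Oasl2, an interferon-induced antiviral protein, read 136, 127 and 127 CPM in KDM6B OE and 147, 180.0 and 197 CPM in Tet2 KO (−0.41 ± 0.12, adjusted p = 0.35), and Irgm1, an immunity-related GTPase, 206, 196 and 159.7 CPM in KDM6B OE and 214, 262 and 251 CPM in Tet2 KO (−0.37 ± 0.12, adjusted p = 0.444). In the list of MHC class I and peptide loading, 12 of 14 were negative, none was called with limma (2 at an unadjusted p under 0.05, 0 called by edgeR and 0 by DESeq2), and the median was −0.05 (at lowest −0.11 without Tet2 KO 2 and at highest −0.06 without KDM6B OE 2).

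Genes of myeloid cells gave 2 of the lower calls. Mpeg1, the pore-forming protein perforin-2 of phagocytes, read 9.51, 10.00 and 5.07 CPM in KDM6B OE and 24.1, 28.2 and 33.3 CPM in Tet2 KO, a difference of −1.72 ± 0.25 (adjusted p = 0.0221). Ltf, which encodes lactoferrin of the secondary granules of neutrophils, read 0.749, 0.410 and 1.13 CPM in KDM6B OE and 6.00, 3.57 and 5.01 CPM in Tet2 KO, a difference of −1.73 ± 0.29 (adjusted p = 0.0446). Ltf thus passed the filter through the Tet2 KO libraries, which had to be the higher group. Scin, an actin-severing protein, read 5.99, 3.03 and 2.69 CPM in KDM6B OE and 14.2, 12.6 and 14.3 CPM in Tet2 KO, a difference of −1.64 ± 0.27 (adjusted p = 0.0417). Of the monocyte genes that missed the threshold, Cx3cr1, the fractalkine receptor, read 4.10, 6.35 and 5.23 CPM in KDM6B OE and 9.35, 14.7 and 19.2 CPM in Tet2 KO (−1.27 ± 0.28, adjusted p = 0.142) without overlap. Ms4a6c read 45.7, 36.2 and 35.7 CPM in KDM6B OE and 44.6, 81.0 and 121 CPM in Tet2 KO (−0.94 ± 0.28, adjusted p = 0.395), with Tet2 KO 1 inside the KDM6B OE range. The 24 monocyte and macrophage markers summed to 749 to 886 CPM in KDM6B OE and 748 to 1174 CPM in Tet2 KO. Of 23 tested, 1 was called with limma (10 at an unadjusted p under 0.05, 1 called by edgeR and 7 by DESeq2). In this list 9 were positive and 14 negative (median −0.19, at lowest −0.28 without Tet2 KO 1 and at highest −0.08 without Tet2 KO 3). Without overlap, 4 were higher and 3 lower (17.4% and 13.04%, against 7.51% and 6.14% of all genes tested). The largest positive difference in the list was that of C1qb (1.40), whose values are given below.

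The 20 neutrophil granule markers summed to 2916 to 3995 CPM in KDM6B OE and 2909.9 to 7509 CPM in Tet2 KO, and Tet2 KO 1 was the low library of its group. Of 15 tested, Ltf alone was called, 5 were positive and 10 negative. The median was −0.58, with −0.31 without Tet2 KO 3, −0.36 without KDM6B OE 1 and −0.04 under the filter at a mean of 5 CPM. Without overlap, 2 were higher and 2 lower (13.3% each, against 7.51% and 6.14% of all genes tested). The lower ones were Ltf and Camp (means of 0.280 CPM in KDM6B OE and 1.96 CPM in Tet2 KO). Camp, like Ltf, passed the filter through the Tet2 KO libraries. The higher ones were Gfi1 (29.7 and 16.4 CPM) and Csf3r (169 and 146 CPM). Mpo, the myeloperoxidase of early granules, read 2479, 2941 and 2049 CPM in KDM6B OE and 2255, 4155 and 6199 CPM in Tet2 KO, so that the groups overlapped (−0.65 ± 0.29, adjusted p = 0.617). None of the markers on either list was at 0 in all 6 libraries, and the part of mature myeloid cells in these values was not tested. The Mpeg1 call ended without KDM6B OE 1 or Tet2 KO 3, with all 12 libraries in the fit (adjusted p up to 0.0846). The Scin call ended without KDM6B OE 2 or 3 or Tet2 KO 1, 2 or 3, at equal totals, in edgeR (adjusted p up to 0.181). The Ltf call ended without KDM6B OE 1, 2 or 3 or Tet2 KO 1 or 3, with all 12 libraries in the fit, with a pseudocount of 0.25, at equal totals, in edgeR (adjusted p up to 0.405), and the gene is below the filter at a mean of 5 CPM.

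Fcna, a ficolin that recognises sugars on microbes and is made by resident macrophages, went the other way. It read 23.9, 12.1 and 22.4 CPM in KDM6B OE and 6.17, 6.11 and 4.73 CPM in Tet2 KO, a difference of 1.57 ± 0.27 (adjusted p = 0.0454), and its call ended without KDM6B OE 1 or 3 or Tet2 KO 2 or 3, with all 12 libraries in the fit, at equal totals (adjusted p up to 0.495). Other genes of resident macrophages were then looked up, a list of 16 chosen after values were seen, which therefore supports nothing. Of 14 tested, 13 were positive and 6 did not overlap, all higher (42.9%, against 7.51% of all genes tested). C1qb, a chain of the complement component that starts the classical pathway, read 25.3, 11.2 and 20.6 CPM in KDM6B OE and 7.33, 7.55 and 4.29 CPM in Tet2 KO (1.40 ± 0.30, adjusted p = 0.144). Its partner C1qc read 16.8, 10.3 and 14.4 CPM in KDM6B OE and 6.43, 3.61 and 5.69 CPM in Tet2 KO (1.25 ± 0.26, adjusted p = 0.119). Vcam1, an adhesion molecule of macrophages and stroma, read 31.1, 13.7 and 18.5 CPM in KDM6B OE and 6.60, 5.93 and 6.64 CPM in Tet2 KO (1.51 ± 0.27, adjusted p = 0.0649). The 16 genes summed to 160.4 to 257 CPM in KDM6B OE and 103 to 148 CPM in Tet2 KO. Timd4 and Siglec1, which define such cells, were below the filter, and the part of macrophages in the Fcna call was not tested.

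Mast cell and basophil markers had differences of both signs. Of 14 tested none was called with limma (7 at an unadjusted p under 0.05, 0 called by edgeR and 1 by DESeq2), and 10 were negative and 4 positive. The median was −0.36, with −0.21 without KDM6B OE 2 and −0.68 under the filter at a mean of 5 CPM. The basophil protease Mcpt8 read 36.2, 20.7 and 55.5 CPM in KDM6B OE and 46.1, 104 and 95.9 CPM in Tet2 KO (−1.13 ± 0.34, adjusted p = 0.411), and carboxypeptidase Cpa3 44.9, 44.5 and 78.4 CPM in KDM6B OE and 97.4, 126 and 93.6 CPM in Tet2 KO (−0.94 ± 0.20, adjusted p = 0.142). The mast cell protease Tpsb2 lay in the other direction, at 1.98, 2.79 and 10.8 CPM in KDM6B OE and 1.37, 0 and 0 CPM in Tet2 KO (1.94 ± 0.51, adjusted p = 0.288). Cma1, another protease of mast cells, did so too, at 2.86, 2.46 and 7.53 CPM in KDM6B OE and 1.84, 0 and 0.676 CPM in Tet2 KO (1.53 ± 0.44, adjusted p = 0.362). For both, KDM6B OE 3 was the highest library, and Tet2 KO passed 1 CPM in 1 library only. Both thus reached the filter only with the KDM6B OE libraries, where they are high, so they do not show a division of the list.

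Fgf3, a fibroblast growth factor of embryonic patterning, was lower in KDM6B OE with narrow groups. It read 9.64, 10.9 and 12.9 CPM in KDM6B OE and 26.9, 28.3 and 26.5 CPM in Tet2 KO, a difference of −1.23 ± 0.18 (adjusted p = 0.0216), and its call ended without KDM6B OE 1 or 2 or Tet2 KO 3 (adjusted p up to 0.118). Fgf3 lies at chromosome 7, 144838083 to 144844436, plus strand. The 55 other tested genes within 10 Mb on each side of Tet2 held no call in limma, edgeR or DESeq2, with 7 at an unadjusted p under 0.05 (12.7%, against 8.0% of all genes) and a median difference of −0.04.

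Genes of growth and division showed small differences. None of 40 tested G2 and M phase genes was called with limma (3 at an unadjusted p under 0.05, 0 called by edgeR and 0 by DESeq2), 33 were negative, and the median was −0.07 (at lowest −0.16 without Tet2 KO 2 and at highest 0.01 without Tet2 KO 3). The medians of the 41 S phase genes, the 76 cytosolic ribosomal proteins and the 66 respiratory chain genes were 0.01, −0.08 and −0.10 and no gene of these lists was called with limma, edgeR or DESeq2. Of these genes 18, 71 and 58 had a negative difference. With 1 library left out, the first median was at lowest −0.06 without Tet2 KO 2 and at highest 0.09 without KDM6B OE 1. The second was at lowest −0.16 without Tet2 KO 1 and at highest 0.05 without Tet2 KO 2. The last was at lowest −0.18 without Tet2 KO 1 and at highest 0.01 without Tet2 KO 2. At an unadjusted p under 0.05 the lists held 3, 1 and 1 genes. Among 36 histone genes tested, Hist1h1c, a linker histone, was the only call, at 111, 73.6 and 60.8 CPM in KDM6B OE and 27.4, 31.0 and 38.3 CPM in Tet2 KO (1.29 ± 0.21, adjusted p = 0.0398). The list's median was −0.28, with 4 genes higher and 7 lower without overlap (11.1% and 19.4%, against 7.51% and 6.14% of all genes tested). The median was −0.11 without Tet2 KO 3, −0.04 under the filter at a mean of 5 CPM and −0.17 without KDM6B OE 1. Hist1h2bg read 28.3, 21.7 and 36.1 CPM in KDM6B OE and 8.92, 13.2 and 19.0 CPM in Tet2 KO (1.04 ± 0.27, adjusted p = 0.248). Hist1h4d read 78.0, 82.3 and 73.3 CPM in KDM6B OE and 106, 154 and 104 CPM in Tet2 KO (−0.61 ± 0.15, adjusted p = 0.204). They lay in opposite directions and both missed the threshold. Histone genes have near-identical copies, and most of their transcripts lack the poly(A) tail that the libraries were primed on, so these values are uncertain. The Hist1h1c call ended without KDM6B OE 1 or 2 or Tet2 KO 1 or 2, at equal totals (adjusted p up to 0.137).

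A further 3 called genes, named after their values were seen, are on no list above. Stxbp4, a syntaxin-binding protein, read 149, 154 and 179 CPM in KDM6B OE and 104, 88.6 and 71.7 CPM in Tet2 KO, a difference of 0.87 ± 0.14 (adjusted p = 0.0398). Padi4, the enzyme that converts arginine of histones to citrulline, read 125, 145 and 113 CPM in KDM6B OE and 64.1, 58.5 and 84.6 CPM in Tet2 KO, a difference of 0.89 ± 0.15 (adjusted p = 0.0446). The unannotated transcript Gm20199 read 22.4, 21.1 and 16.9 CPM in KDM6B OE and 7.33, 7.73 and 9.86 CPM in Tet2 KO, a difference of 1.18 ± 0.20 (adjusted p = 0.0482). None of the 3 overlapped between groups. The call of Stxbp4 ended without KDM6B OE 1, 2 or 3 or Tet2 KO 3, at equal totals, in edgeR (adjusted p up to 0.16), that of Padi4 without KDM6B OE 1, 2 or 3 or Tet2 KO 1 or 2, with all 12 libraries in the fit, at equal totals, in edgeR, with the replicate number as a block (adjusted p up to 0.491) and that of Gm20199 without KDM6B OE 1, 2 or 3 or Tet2 KO 1, 2 or 3, with a pseudocount of 0.25, at equal totals, in edgeR, with the replicate number as a block (adjusted p up to 0.274). Gm11511 and Gm11512 overlap Stxbp4.

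**Figure D5:**
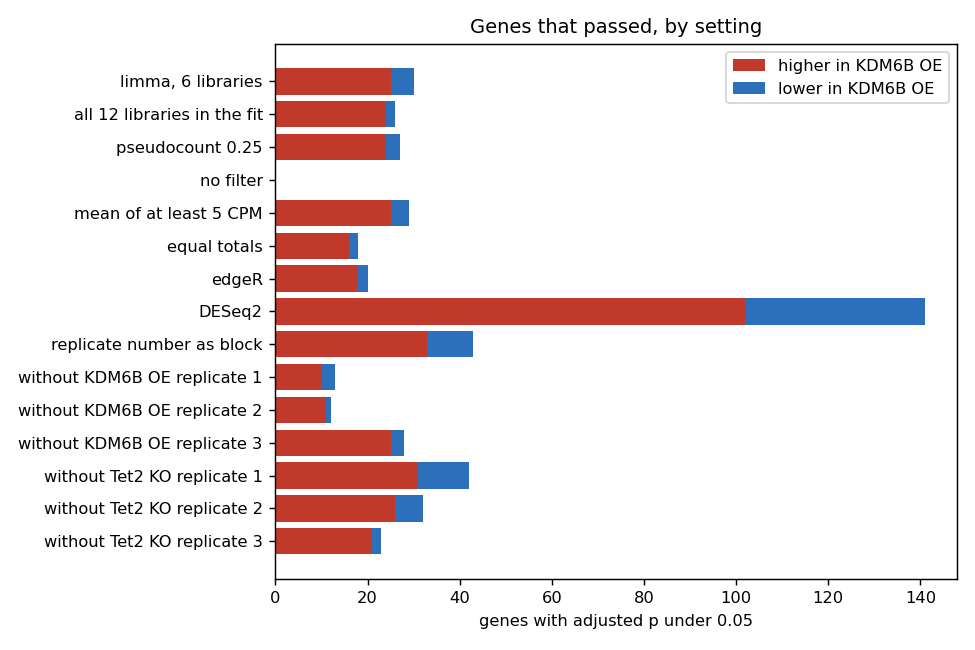
Number of genes called (adjusted p under 0.05) in the limma analysis of 6 libraries and in each of the 14 alternatives, stacked by direction. Higher genes outnumber lower ones wherever any gene is called, from 12 genes without KDM6B OE 2 to 141 with DESeq2, and no gene is called without the filter on low values.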

How the data were processed

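The tools named in the submitters' processing notes are edgeR 3.8.6, HTSeq 0.6.0 and TopHat2 2.0.10, with the build mm10. Annotation and strand setting: not given in the sources used here. Libraries were poly(A) RNA amplified by a SMARTer kit and tagmented with Nextera, per the labels' protocols. The deposited table, 15366 genes, holds a signal unit, counts divided by an effective library size (CPM after the authors' edgeR scaling). Whole reads came back for 100% of values within a tolerance of 1e-06 reads. No gene had under 10 reads over the 12 libraries. Between replicates of a group the chi-square per gene was 19.4 to 61.1, above sampling noise.

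Genes above 1 CPM in at least 3 of the 6 libraries were tested (12609, with 2757 set aside) in limma 3.58.1 (R 4.3.3) on the log2(CPM + 1) scale, with 1 mean per group, an empirical Bayes mean trend and 4 residual degrees of freedom (11.06 in total, median). Differences on this scale understate low genes. The design had foreseen plain CPM, and the same test was kept. edgeR 4.0.16 and DESeq2 1.42.0 ran on the recovered reads as alternatives. The other alternatives were all 12 libraries in the fit, a pseudocount of 0.25, no filter, a mean of at least 5 CPM, equal totals, the replicate number as a block, and each library left out. Scripts were tested on simulated data.

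Genes named are Tet2, Kdm6b, the 12 largest changes in each direction that passed without overlap at a mean of at least 5 CPM in the higher group, predicted genes left out (4 lower genes passed, and 8 places were filled by lowest p with genes that had not passed), and members of the lists where they are described. The members and lists were chosen with earlier results of these data known, so list counts are descriptions without a test. Coordinates are GENCODE M21 (mm10), with 14775 symbols matched, and promoters are from RefSeq. The values of 1 called gene are not reported here.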

Additional observations from a re-analysis of the deposited data

How the results depend on the processing

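The 30 called genes (25 higher, 5 lower) became 18 at equal totals (16 and 2), 20 in edgeR (18 and 2), 141 in DESeq2 (102 and 39) and 0 without the filter (0 and 0). The fit without the filter had 2.87 prior degrees of freedom against 7.06, and 68 genes without residual variance. Its adjusted p for Tet2 was 0.125 at the same difference of 1.52. Lower calls were 2 with all 12 libraries in the fit and 3 with a pseudocount of 0.25. Leaving out 1 library gave 12 to 42 calls (10 to 31 higher, 1 to 11 lower), the fewest without KDM6B OE 2 and the most without Tet2 KO 1. DESeq2 called all 30, edgeR 20 of them, and the fit without Tet2 KO 1 called 22 of them. Leaving aside the macrophage list chosen after values were seen, lists that held a called gene numbered 17, against 0 without the filter and 6 to 17 when 1 library was left out. The replicate number as a block gave 43 calls (33 and 10), 27 of them among the 30. Same-numbered libraries correlated at 0.165, 0.0768 and −0.0295 in their deviations, and differently numbered ones at −0.166 to 0.0878. The ranges overlap, and whether the numbers pair the samples was not tested. Without Tet2 KO 1 the difference in Xist turned from 2.17 to −0.10, and without Tet2 KO 2 it was 3.31. The cause of these changes was not tested. Depth limits genes of a few CPM, such as Ltf, most.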

Other observations

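Several genes that missed the threshold with groups that did not overlap are on no list above and were named after their values were seen, except those chosen by the rule for lower genes. Among them, Neat1, the long RNA that builds nuclear paraspeckles, read 215, 191 and 161 CPM in KDM6B OE and 105, 85.7 and 129.6 CPM in Tet2 KO (0.83 ± 0.15, adjusted p = 0.0786). Sgk1, a kinase induced by glucocorticoids, read 27.04, 43.4 and 27.3 CPM in KDM6B OE and 10.5, 17.7 and 10.4 CPM in Tet2 KO (1.28 ± 0.25, adjusted p = 0.0847), and the clock gene Per1 15.4, 15.0 and 8.66 CPM in KDM6B OE and 3.34, 3.24 and 6.04 CPM in Tet2 KO (1.43 ± 0.29, adjusted p = 0.107). Cd69, an early activation antigen, read 159, 126 and 72.6 CPM in KDM6B OE and 38.7, 55.8 and 55.6 CPM in Tet2 KO (1.18 ± 0.25, adjusted p = 0.119). Gas6, the ligand of the receptors AXL and MERTK, read 15.4 to 22.98 CPM in KDM6B OE and 4.29 to 9.99 CPM in Tet2 KO (1.49 ± 0.28, adjusted p = 0.0797). All of these were higher in KDM6B OE.

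On the side of Tet2 KO, Hepacam2 read 0.793, 0.246 and 0.234 CPM in KDM6B OE and 4.84, 23.9 and 3.14 CPM in Tet2 KO (−2.59 ± 0.55, adjusted p = 0.123), with Tet2 KO 2 far above the rest. It passed the filter through the Tet2 KO libraries alone, which had to be the higher group. Card6, a protein with a caspase recruitment domain, read 2.55, 2.17 and 1.25 CPM in KDM6B OE and 7.72, 5.33 and 6.40 CPM in Tet2 KO (−1.34 ± 0.27, adjusted p = 0.108). Lpcat2, which makes platelet-activating factor, read 36.6, 21.7 and 29.2 CPM in KDM6B OE and 63.9, 47.1 and 65.2 CPM in Tet2 KO (−1.001 ± 0.20, adjusted p = 0.0883). Serpina3g, a protease inhibitor of early blood cells, read 356, 366 and 439.6 CPM in KDM6B OE and 493, 696 and 729 CPM in Tet2 KO (−0.71 ± 0.15, adjusted p = 0.121), and Ms4a6b 40.5, 38.2 and 37.5 CPM in KDM6B OE and 57.7, 63.3 and 86.0 CPM in Tet2 KO (−0.80 ± 0.15, adjusted p = 0.0845).

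Further gene groups of the same cells held few calls. Of 26 tested transcription factors of stem and myeloid cells none was called with limma (4 at an unadjusted p under 0.05, 0 called by edgeR and 1 by DESeq2), and the median was 0.11 (with 1 library left out, at lowest 0.05 without Tet2 KO 1 and at highest 0.09 without KDM6B OE 3). Gfi1, a repressor that stem cells and granulocyte precursors need, read 25.9, 30.9 and 32.2 CPM in KDM6B OE and 17.1, 8.38 and 23.7 CPM in Tet2 KO (0.92 ± 0.30, adjusted p = 0.434), and Cebpb, a factor of stress granulopoiesis, 57.9, 75.1 and 67.7 CPM in KDM6B OE and 34.9, 26.7 and 49.5 CPM in Tet2 KO (0.87 ± 0.20, adjusted p = 0.173). Both were higher in each KDM6B OE library than in any Tet2 KO library. Among 25 cytokine receptors none was called with limma (3 at an unadjusted p under 0.05, 0 called by edgeR and 0 by DESeq2). Among them Il1r1, the receptor of interleukin 1, read 50.5, 37.3 and 71.4 CPM in KDM6B OE and 41.5, 22.4 and 20.0 CPM in Tet2 KO (0.92 ± 0.28, adjusted p = 0.411). Of 20 SOCS genes and STAT5 targets none was called with limma (4 at an unadjusted p under 0.05, 0 called by edgeR and 1 by DESeq2), and 17 were positive. Socs3, a feedback inhibitor of cytokine receptors, read 16.9, 18.4 and 23.5 CPM in KDM6B OE and 11.2, 8.38 and 9.90 CPM in Tet2 KO (0.92 ± 0.20, adjusted p = 0.145). Of 25 p53 targets Btg2 alone was called with limma (7 at an unadjusted p under 0.05, 1 called by edgeR and 1 by DESeq2). Their median was 0.05 (at lowest 0.03 without Tet2 KO 3 and at highest 0.09 without KDM6B OE 1). Without overlap, the transcription factor, SOCS and p53 lists held 4, 4 and 6 higher genes (15.4%, 20% and 24%, against 7.51% of all genes tested). Lower ones numbered 2, 1 and 1 (7.69%, 5% and 4%, against 6.14%). The lists of lymphoid, megakaryocyte and erythroid priming held no call with limma, edgeR or DESeq2, with 3, 1 and 0 genes at an unadjusted p under 0.05, and their medians were 0.09, −0.07 and −0.07. With 1 library left out, the first was at lowest −0.07 without Tet2 KO 2 and at highest 0.18 without Tet2 KO 1. The second was at lowest −0.19 without KDM6B OE 2 and at highest 0.00 without KDM6B OE 3. The last was at lowest −0.21 without Tet2 KO 1 and at highest 0.10 without Tet2 KO 3.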
